A study of Homo sapiens with 3 samples.

Results

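A set of 10 chemokine genes was followed in the bladder cancer line 5637, in RNA-seq libraries of the parental line and of a derivative made resistant to the nucleoside analogue gemcitabine. The members were chosen by name: CXCL1, CXCL2, CXCL3, CXCL5, CXCL6, CXCL8 (listed under its older symbol IL8), CXCL10, CXCL16, CCL2 and CCL20. Of these 10 genes, 9 were found among the 29960 genes of the table, and CCL2 was not analysed here. The line 5637 is an established human bladder carcinoma line. The parental cells carry the genotype label WT, and the other group is labelled Gemcitabine Resistant. The resistant line had been derived by exposing parental cells to gemcitabine, and single-cell clones of both lines were sequenced, 3 per group by the study's design. Both groups were grown in RPMI medium with FBS, and both are labelled untreated at harvest. Of all libraries, 3 carry a label, which are parental 1, resistant 1 and resistant 2, with 14475531, 15836788 and 17461941 reads on genes. The table also holds the authors' mean of normalised counts for each whole group, with no spread.

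Chemokines are small secreted proteins that guide migrating leukocytes through receptors of the G protein-coupled kind. In CC chemokines the first pair of cysteines is adjacent, and in CXC chemokines a single residue separates them. CXCL1, CXCL2, CXCL3, CXCL5, CXCL6 and CXCL8 carry the residues glutamate, leucine and arginine (ELR) before the first cysteine, attract neutrophils through CXCR2 and lie together on chromosome 4. Their transcription is induced by interleukin-1 and tumour necrosis factor through NF-kB, and their mRNAs are short-lived. CXCL10 is an interferon-induced ligand of CXCR3, CXCL16 is a membrane-anchored ligand of CXCR6 that can be shed, and CCL20 is the ligand of CCR6. Urothelial tumour cells are known sources of CXCL8 and its relatives.

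The promoters of the 6 ELR members are shown because these genes share a letter pattern and differ in how closely their sequences match. The stretches below hold the 140 bases before each annotated start, from position -140 to -1, read 5′ to 3′ on the strand of the gene, from RefSeq on GRCh38.p14. Capitals mark GGNNTTTCC, letters found in common NF-kB motifs.
CXCL1: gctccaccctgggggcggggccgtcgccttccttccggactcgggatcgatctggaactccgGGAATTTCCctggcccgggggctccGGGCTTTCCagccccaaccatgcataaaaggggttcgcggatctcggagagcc
CXCL2: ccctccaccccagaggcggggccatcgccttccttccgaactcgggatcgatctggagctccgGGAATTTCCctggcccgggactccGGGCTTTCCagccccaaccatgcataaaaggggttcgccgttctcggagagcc
CXCL3: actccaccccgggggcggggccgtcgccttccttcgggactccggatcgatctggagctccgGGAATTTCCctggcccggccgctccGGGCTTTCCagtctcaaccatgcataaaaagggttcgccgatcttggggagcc
CXCL5: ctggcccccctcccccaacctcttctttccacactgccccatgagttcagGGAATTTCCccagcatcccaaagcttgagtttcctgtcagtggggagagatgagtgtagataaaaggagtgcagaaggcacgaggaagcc
CXCL6: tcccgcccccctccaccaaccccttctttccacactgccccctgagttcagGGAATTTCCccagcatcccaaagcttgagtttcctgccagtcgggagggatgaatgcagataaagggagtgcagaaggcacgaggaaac
CXCL8: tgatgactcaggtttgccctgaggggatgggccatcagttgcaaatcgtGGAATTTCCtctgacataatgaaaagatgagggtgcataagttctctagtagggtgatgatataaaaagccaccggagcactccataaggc
On GRCh38.p14 the stretches lie at chr4:73869253-73869392 (plus strand) for CXCL1, chr4:74099196-74099335 (minus) for CXCL2 and chr4:74038690-74038829 (minus) for CXCL3. Those of CXCL5, CXCL6 and CXCL8 lie at chr4:73998678-73998817 (minus), chr4:73836538-73836677 (plus) and chr4:73740429-73740568 (plus).

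All 6 stretches contained GGAATTTCC, beginning at -78, -77 and -78 in CXCL1, CXCL2 and CXCL3, and at -90, -89 and -91 in CXCL5, CXCL6 and CXCL8. CXCL1, CXCL2 and CXCL3 held GGGCTTTCC as well, at -53 in each. Over windows of 250 bases before and 50 bases after the start, GGNNTTTCC on either strand was found in 8 of 8 member promoters that could be read. The 2 others were CXCL10, at -176, and CCL20, at -79, both on the opposite strand. The promoters of CXCL16 and CCL2 were not read here. Of 35116 promoters of the same length, 6.26% held GGNNTTTCC. TGANTCA, the letters of an AP-1 motif, was found in 7.71% of promoters and, among members, in CXCL8 alone, at -137. TATAAA was found in 11.5% of promoters and, among members, in CXCL8 and CCL20. Both strands were searched, and a match is a run of letters, not a measured site. CXCL1 shared 91.5% of aligned bases with CXCL2 and 90.7% with CXCL3 over the stretch, and CXCL5 shared 90.1% with CXCL6. CXCL8 shared 37.8% to 40.8% with the others.

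In the 3 labelled libraries, 7 members were expressed well enough to be tested, and every one of these 7 had more reads per library size in each resistant library than in parental 1. The ratio of the resistant mean to the parental library ran from 2.25 for CXCL8 to 4.73 for CXCL1. CXCL1 alone passed the test. The 2 remaining members, CXCL10 and CCL20, had at most 9 reads in any library and did not pass the filter on low counts. These ratios rest on 1 parental library, in which all 7 genes were below the authors' mean for the parental group, and the ratios of the group means were 0.947 to 1.70. Summed over the members found, resistant 1 and resistant 2 held 1.09 and 1.61 of the mean for the resistant group. In bulk RNA, fewer cells that express a gene and less RNA per cell cannot be told apart.

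Levels are given below as CPM, which are a gene's reads per fixed library size, scaled with TMM factors, and tests are edgeR's quasi-likelihood test over 15643 genes with Benjamini-Hochberg adjustment at 0.05. With 1 library against 2, the fit had 1 residual degree of freedom, so its spread came from the 2 resistant libraries and from moderation across genes. The lone parental library was assumed to vary alike. The test called 137 genes, which is 0.876% of those tested, with 46 higher (0.294%) and 91 lower (0.582%) in the resistant libraries. Of the 7 tested members, 1 was called. With no filter on low counts edgeR called 2.02% of 26434 genes, among them 4 members (CXCL1, CXCL5, CXCL6 and CXCL16), and DESeq2 called 1.71% of 14647 genes and 1 member, CXCL1. The split of calls moved to 100 higher and 128 lower when scaled by total count, and turned to a slight majority of higher calls with no filter (273 and 261) and with DESeq2 (127 and 124).

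CXCL1 (ENSG00000163739), a neutrophil attractant first known as a melanoma growth factor, had 148 reads in parental 1, 834 in resistant 1 and 839 in resistant 2. These were 10.5, 51.0 and 48.3 CPM. Both resistant libraries stood far above the parental library, 4.86-fold and 4.60-fold, and did not differ from each other beyond counting error. The ratio of resistant 2 to resistant 1 was 0.947, with an exact 95% interval of 0.860 to 1.04 that covers counting error only. Over the labelled libraries its log2 fold change was 2.24 and passed the test (edgeR adjusted p = 0.0332), with 1 library in the parental arm. DESeq2 gave 2.24 ± 0.45 (SE). It was therefore the member with the most even resistant pair. In the group means CXCL1 was 470.6 in the parental and 561.7 in the resistant group, a ratio of 1.19 (log2 ratio 0.25). The parental library held 0.323 times its group mean.

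CXCL2 (ENSG00000081041), a close paralogue of CXCL1, had the lowest mean FPKM of the 6 ELR members, with 47, 161 and 237 reads (3.34, 9.84 and 13.6 CPM) in parental 1, resistant 1 and resistant 2. Resistant 2 was above resistant 1 by 1.39 (95% interval 1.13 to 1.70). By edgeR its log2 fold change was 1.81 (unadjusted p = 0.00512, adjusted p = 0.200). The groups did not overlap, but the difference did not pass the test. The group means were 107.9 and 130.7.

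CXCL3 (ENSG00000163734), the third of this closely related trio, had 103, 159 and 424 reads, or 7.31, 9.72 and 24.4 CPM. Resistant 1 lay near the parental library and resistant 2 well above both. It had the smallest ratio of any tested member in resistant 1, 1.33, against 3.34 in resistant 2. The log2 fold change was 1.22 (edgeR adjusted p = 0.551). The group means were 191.0 in the parental and 183.9 in the resistant group, so by that measure CXCL3 was 0.962 of the parental level.

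Parts of CXCL1, CXCL2 and CXCL3 are alike enough for reads to match more than 1 of them. Of all 75-base windows of their transcripts, 0.293% of CXCL1, 2.27% of CXCL2 and 2.30% of CXCL3 occurred in another member, and none did for the other 6 members found. The read length and the handling of such reads were not given in the sources used here. The window of 75 bases was set here, and members were compared with each other only. For CXCL3 the transcript searched had 1075 bases, against a gene length of 1641. The values of CXCL2 and CXCL3 are uncertain by an amount that these shares do not bound.

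CXCL5 (ENSG00000163735), a neutrophil attractant made by epithelial cells, was the most abundant member, with 680, 1455 and 3463 reads (48.3, 89.0 and 199 CPM). Resistant 2 held 2.24 times the level of resistant 1 (95% interval 2.11 to 2.38), and resistant 1 held 1.84 times the parental level. Over both resistant libraries its log2 fold change was 1.58 (edgeR adjusted p = 0.299). Its group means were 987.6 and 1513.9, a ratio of 1.53. The resistant pair thus differed from each other by more than resistant 1 differed from the parental library.

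CXCL6 (ENSG00000124875), the paralogue nearest to CXCL5, had 193, 951 and 522 reads (13.7, 58.1 and 30.1 CPM). Here the order of the resistant libraries was the reverse of that of CXCL5, with resistant 2 at 0.517 of resistant 1 (95% interval 0.464 to 0.576). CXCL6 had a log2 fold change of 1.69 (edgeR adjusted p = 0.212). Its group means were 306.8 and 455.4, a ratio of 1.48. CXCL6 and CXCL1 were the members that were not higher in resistant 2 than in resistant 1 among those tested.

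CXCL8 (ENSG00000169429), also known as interleukin-8 and the founding neutrophil chemoattractant of the family, had 235, 509 and 761 reads (16.7, 31.1 and 43.8 CPM). Both resistant libraries were above the parental library, by 1.87 and 2.63. Its log2 fold change was 1.17 (edgeR adjusted p = 0.347), the smallest among the tested members. In the group means CXCL8 was 457.3 in the parental and 432.8 in the resistant group, a ratio of 0.947. The direction of CXCL8 therefore differed between the labelled libraries and the group means.

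CXCL16 (ENSG00000161921), which serves both as a scavenger receptor and as a chemokine, lies on chromosome 17, away from the ELR cluster. It had 237, 629 and 1042 reads (16.8, 38.5 and 60.0 CPM), so both resistant libraries exceeded the parental library, by 2.29 and 3.57. By edgeR, CXCL16 had a log2 fold change of 1.55 (unadjusted p = 0.00453, adjusted p = 0.188). The group means were 329.5 and 560.1, and their ratio of 1.70 was the largest among the 7 tested members. CXCL16 overlaps MED11, on the opposite strand, by 85 bases, and MED11 held 44, 47 and 53 reads. Whether the counting used strand was not given in the sources used here.

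CXCL10 (ENSG00000169245) had 0 reads in parental 1, 5 in resistant 1 and 9 in resistant 2. A count of 0 there allows up to 0.213 CPM (3 reads), and against that limit the resistant mean was at least 1.94-fold higher. The authors' means were 0.3 and 4.0. CXCL10 lies inside ART3, a gene of the opposite strand, which held 0, 0 and 4 reads. CCL20 (ENSG00000115009), an attractant of dendritic cells and lymphocytes, had 5, 0 and 5 reads, and its group means were 6.5 and 2.2. Both genes were near the limit of detection and did not enter the edgeR test, and DESeq2 gave them unadjusted p-values of 0.131 (CXCL10) and 0.686 (CCL20) and no adjusted p.

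**Figure D1:**
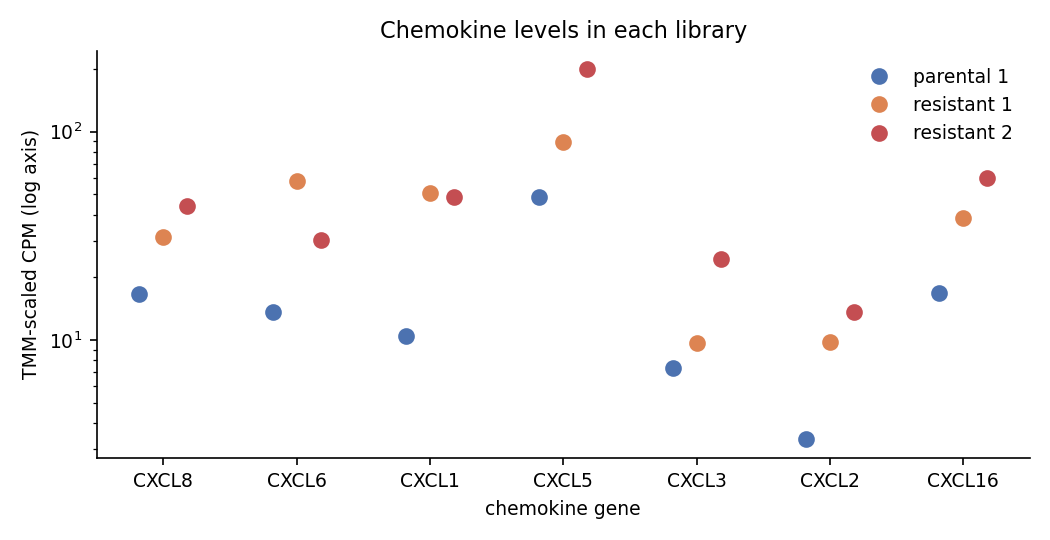
Level of each tested chemokine in the 3 labelled libraries, in TMM-scaled CPM on a log axis, with 1 point per library and the chromosome 4 genes in their order along the chromosome. For every gene the parental point is lowest, and for CXCL1 the resistant points, 51.0 and 48.3 CPM, nearly coincide.

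Counted over the members, 7 of 7 tested were above the parental library in both resistant libraries, against 35.2% of all genes tested, and 4 of 7 were at least 2-fold above it in both, against 5.21%. The 4 genes were CXCL1, CXCL2, CXCL6 and CXCL16. An unadjusted p under 0.05 with a higher resistant level was reached by 6 of 7, all but CXCL3, against 4.85% of all genes. The median log2 fold change of the 7 members was 1.58, beside 0.03 over all genes tested. These members share the same parental library, and 6 of the 7 lie together on chromosome 4, so their counts are not independent of each other. On chromosome 4, 436 of 579 other genes tested had a log2 fold change above 0. In the group means, 5 of 7 were higher in the resistant group, against 51.4% of the genes whose mean reached 10, and the median log2 ratio was 0.27 beside 0.02. CXCL5 and CXCL16 were at least 1.5-fold higher in the group means, against 9.04% of all genes.

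**Figure D2:**
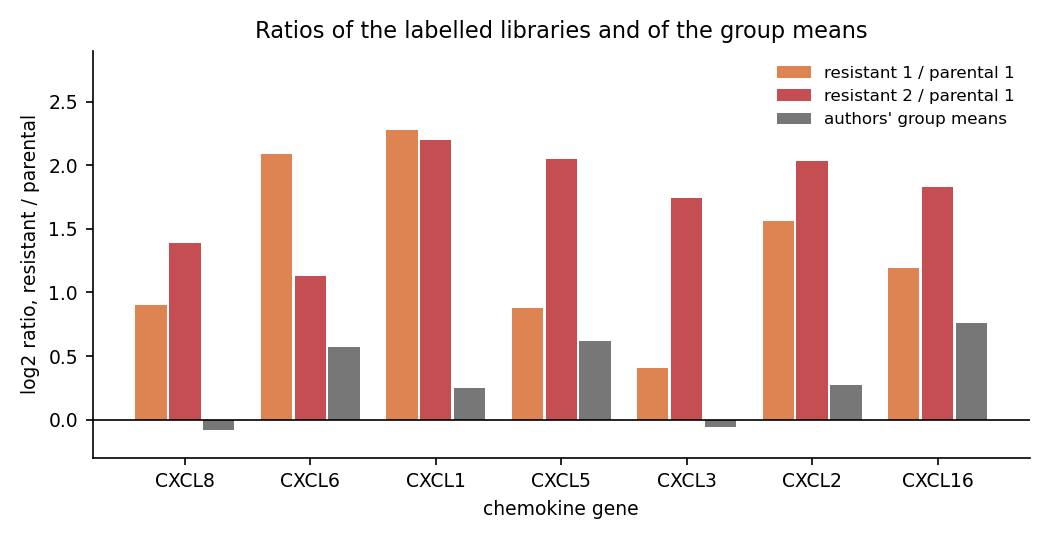
Log2 ratio of resistant to parental for each tested chemokine, from each labelled resistant library over parental 1 and from the authors' group means, with bars starting at 0. The library ratios run from 0.41 to 2.28, and the group mean ratios from -0.08 for CXCL8 to 0.76 for CXCL16.

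The parental library lay low for these genes within its own group. After scaling both to a median ratio of 1 over 11701 genes, parental 1 held 0.323 of the parental group mean for CXCL1, 0.447 for CXCL2, 0.528 for CXCL8, 0.554 for CXCL3, 0.646 for CXCL6, 0.707 for CXCL5 and 0.739 for CXCL16. All 7 were thus below their group mean, and 2 of 7 were at or below 0.5 of it, against 0.564% of all these genes. Resistant 1 lay on both sides of its group mean, while resistant 2 lay above it for every tested member but CXCL6. CXCL1 (1.32 and 1.27 in resistant 1 and resistant 2), CXCL2 (1.10 and 1.54) and CXCL8 (1.05 and 1.49) were above it in both. For no tested member were both resistant libraries below their group mean. Resistant 1 ran from 0.771 of it (CXCL3) to 1.86 (CXCL6), with CXCL5 at 0.857. Resistant 2 ran from 0.971 (CXCL6) to 1.95 (CXCL3). Summed over the 9 members found, parental 1 held 0.592 of its group mean, resistant 1 held 1.09 and resistant 2 held 1.61. Resistant 2 was at least 1.5 times its group mean for 4 of 7 members, against 4.67% of genes, and resistant 1 for 1 of 7, CXCL6, against 0.972%. Against the authors' parental mean, CXCL1 had log2 ratios of 0.66 in resistant 1 and 0.59 in resistant 2, and CXCL8 had -0.01 and 0.50. What set the labelled libraries apart from their group means was not tested.

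**Figure D3:**
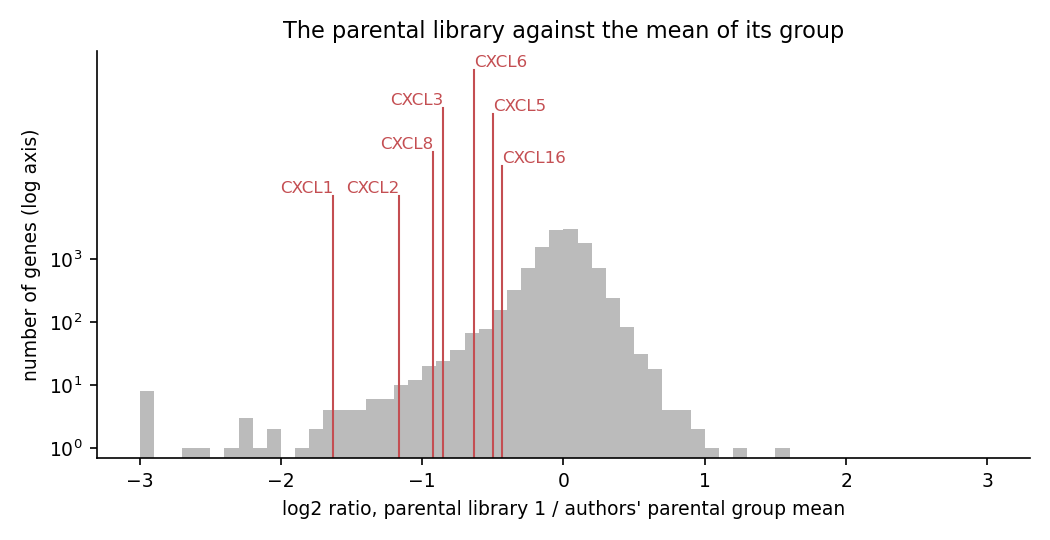
Histogram of the log2 ratio of parental 1 to the authors' parental group mean over the 11701 genes whose parental mean reached 50, with the number of genes on a log axis and values beyond the range pooled in the end bars. Red lines mark the 7 chemokines, all below 0, with CXCL1 farthest out at a ratio of 0.323.

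Compared per gene length, as reads per kilobase of gene and library size (FPKM), the mean of the 3 libraries was highest for CXCL5 (44.3), followed by CXCL1 (33.7), CXCL6 (20.0), CXCL8 (18.0), CXCL16 (17.4), CXCL3 (8.42) and CXCL2 (7.39). CCL20 and CXCL10 followed at 0.253 and 0.236. Apart from the step down to CCL20, the ranges of neighbours in this order overlapped over the libraries. CXCL1 led in resistant 1 with 48.0 FPKM, over CXCL5 with 36.2, and CXCL5 led in resistant 2 with 78.1, over CXCL1 with 43.8. In the parental library CXCL5 led with 18.5 and CXCL1, CXCL8, CXCL6 and CXCL16 lay between 7.37 and 9.52 FPKM.

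Summed over the 9 members found, the level was 59.9 FPKM in parental 1, 171 in resistant 1 and 218 in resistant 2. CXCL5 made up 30.9%, 21.2% and 35.8% of that sum and CXCL1 15.6%, 28.1% and 20.0%. The share of CXCL6 was 13.0%, 20.5% and 7.96%, while that of CXCL2 stayed between 4.45% and 5.10%. The sums of the resistant libraries were made up differently, with CXCL1 and CXCL6 weighing more in resistant 1 and CXCL5 more in resistant 2. In CPM the sum was 117, 288 and 420.5, a 3.03-fold difference between the parental library and the resistant mean. In the authors' group means it was 2858 and 3845, a 1.35-fold difference.

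**Figure D4:**
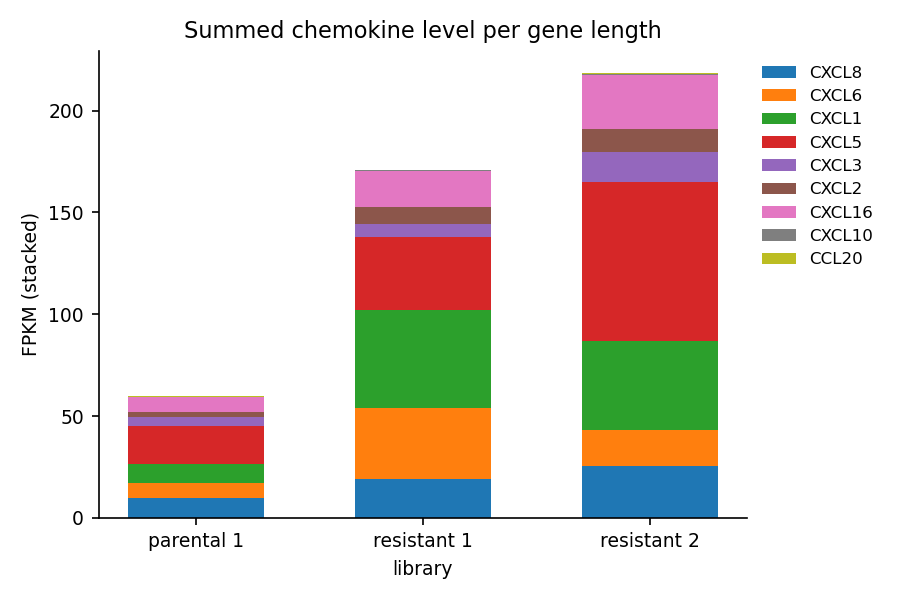
Stacked FPKM of the 9 members found, with 1 bar per library. The bars reach 59.9, 171 and 218 FPKM, and CXCL5 and CXCL1 make the broadest bands in both resistant libraries.

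On hg19, the build named in the submitters' processing notes, the 6 ELR members span 359 kb of chromosome 4. CXCL8 (chr4:74606223-74609433), CXCL6 (chr4:74702214-74714781) and CXCL1 (chr4:74735110-74736959) are on the plus strand. CXCL5 (chr4:74861359-74864496), CXCL3 (chr4:74902306-74904524) and CXCL2 (chr4:74962752-74965010) follow on the minus strand. PPBP (chr4:74852755-74853914, minus), a further ELR gene within this span, was not a member. It had 3, 2 and 2 reads and was not tested, and its group means were 5.3 in the parental and 1.2 in the resistant group. CXCL10 (chr4:76942273-76944650, minus) lies apart from the ELR genes. CXCL16 is at chr17:4636821-4643217 (minus) and CCL20 at chr2:228678558-228682272 (plus). These are the spans of whole genes, with exons, introns and UTRs.

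Other genes of chromosome 4 also lay above the parental library. With the members left out, 579 genes tested on chromosome 4 had a median log2 fold change of 0.42, and 436 of them were above 0. Chromosomes 17 and 2, which hold CXCL16 and CCL20, had medians of 0.17 and 0.05. Within 4 Mb of CXCL8, 33 of 33 other genes tested had a log2 fold change above 0, from 0.01 to 5.83, with a median of 0.62. Of these 33, 1 was called, SOWAHB, at 2.79 (edgeR adjusted p = 0.0182), and 8 were above 2-fold. The value of 5.83 belongs to CXCL11, a CXCR3 ligand with 0, 0 and 15 reads. In the group means, 29 of the 33 had a log2 ratio above 0, with a median of 0.44, among them CXCL11 with means of only 1.3 and 4.2. Of the EGFR ligands beyond the cluster, EREG had 1193, 2916 and 3624 reads and a log2 fold change of 1.19 (adjusted p = 0.288 by edgeR), while AREG and BTC had log2 fold changes of 0.01 and 0.26. A list of 18 neighbours of the cluster, of which 12 were tested, had a median of 0.56, with 0 called by edgeR or DESeq2. An unadjusted p under 0.05 by edgeR was reached by 2, EREG and PARM1, both higher, against 4.85% of all genes tested. PARM1 had 22, 83 and 226 reads and a log2 fold change of 2.53 (edgeR adjusted p = 0.196), above that of every tested member. Its group means were 49.3 and 98.6. After subtracting the median of chromosome 4, the log2 fold changes of CXCL1, CXCL2 and CXCL3 were 1.82, 1.39 and 0.80. Those of CXCL5, CXCL6 and CXCL8 were 1.16, 1.26 and 0.75. The median subtracted, 0.42, is lower than the 0.62 of the genes within 4 Mb. The part of the chromosome in the members' values was not tested.

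**Figure D5:**
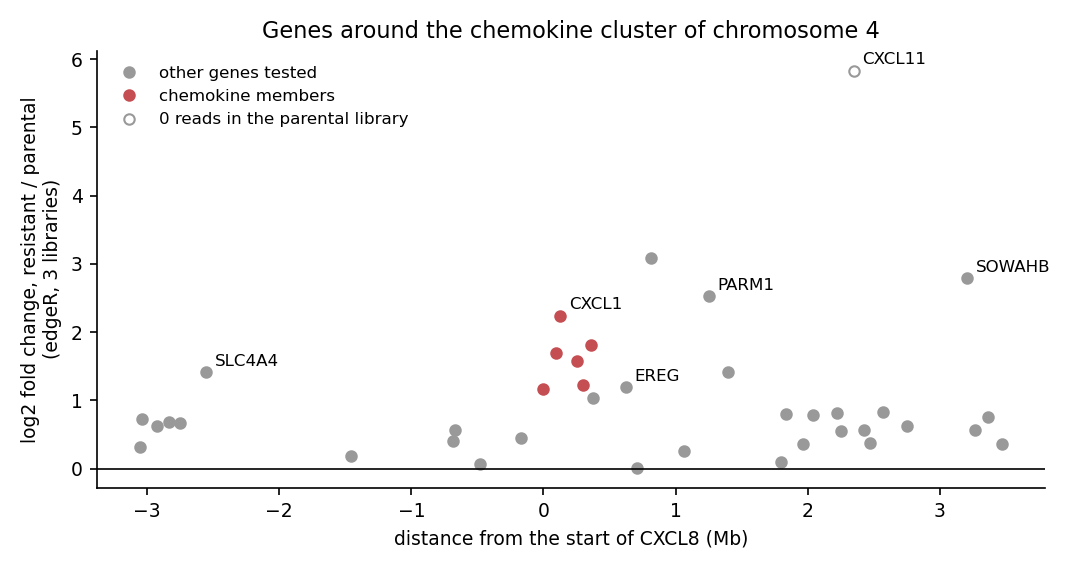
The edgeR log2 fold change of each gene tested within 4 Mb of the start of CXCL8, against distance along chromosome 4 in Mb, with 1 point per gene. Every point lies above 0, and the 6 ELR chemokines in red lie between 1.17 and 2.24, above most of their neighbours.

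Of 38 further chemokines listed, 23 were found and 6 had enough reads to be tested, of which 1 was called. This was CXCL12, the ligand of CXCR4, with 164, 0 and 0 reads. The resistant level was at least 65.3-fold lower by the limit of 3 reads per library, and passed the test (edgeR adjusted p = 0.00159). Its group means were 120.7 and 1.6. CXCL12 lies on chromosome 10 and went in the direction opposite to the members. The median log2 fold change of the 6 was 0.84, or 0.81 with genes at their bound. Of the 23 found, 15 had at most 3 reads in every library.

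Few chemokine receptors were detected. Of 23 listed, 17 were found and 5 were tested, with 0 called by edgeR or DESeq2 and 0 at an unadjusted p under 0.05. CXCR2, the receptor of the ELR chemokines, had 2, 0 and 2 reads, and CXCR6, the receptor of CXCL16, had 7, 15 and 7. CXCR1 was not analysed here. ACKR3, an atypical receptor that scavenges CXCL12, was the most abundant, with 540, 520 and 702 reads and a log2 fold change of -0.09 (adjusted p = 0.985 by edgeR). CXCR2 thus lay at or under the limit of 3 reads in every library.

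The list of inducing cytokines and receptors held 29 genes, among them adaptors and kinases, the antagonist IL1RN and the decoy receptor IL1R2. Of the 29, 25 were tested and 0 were called by edgeR or DESeq2. An unadjusted p under 0.05 by edgeR was reached by 3, all with higher values in the labelled resistant libraries, against 4.85% of all genes tested. These were IL1A, IL1B and IL36G, which encode ligands of the interleukin-1 family. IL36G had 0, 4 and 31 reads, and its group means ran the other way, at 19.8 in the parental and 10.2 in the resistant group. IL1A had 929, 1995 and 2497 reads, or 65.9, 122 and 144 CPM, with a log2 fold change of 1.01 (adjusted p = 0.392). IL1B had 1113, 1996 and 3656 reads, or 79.0, 122 and 211 CPM, with 1.07 (adjusted p = 0.448). Both were above the parental library in each resistant library, like the chemokines. In the group means IL1A was 1796.3 and 1601.3, and IL1B 1636.5 and 1868.0. TNF had at most 3 reads in any library. The list had a median log2 fold change of 0.51, and of -0.01 in the group means.

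Among 20 NF-kB subunits, inhibitors and kinases, 20 were tested, with 0 called by edgeR or DESeq2 and 0 at an unadjusted p under 0.05. Of these, 16 had a log2 fold change above 0, with a median of 0.24, and 0.14 in the group means. RELA, an activating subunit, was at 54.2, 47.6 and 46.6 FPKM, and NFKBIA, the inhibitor that NF-kB itself induces, at 54.0, 73.9 and 64.4 FPKM (edgeR adjusted p = 0.917 and 0.905). TNIP1, the highest of the list by mean FPKM, had a log2 fold change of -0.48 (edgeR adjusted p = 0.768). RELB had the largest, 0.90, at 13.1, 12.4 and 37.9 FPKM (edgeR adjusted p = 0.718). Of 15 interferon signalling genes, 13 were tested, with 0 called by edgeR or DESeq2, 1 at an unadjusted p under 0.05 (JAK2, at a log2 fold change of -0.96), and a median of -0.13. By comparison, the median of the tested members was 1.58. In the group means it was 0.27, where the interferon list had -0.07.

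The label of a bladder epithelial cancer line was checked against cell markers. All 10 epithelial markers were tested, and KRT19, KRT7 and KRT8 were the highest, with mean levels of 3036, 737 and 575 FPKM. The summed level of all 10 was 10115, 7562 and 7749 CPM. KRT5, a basal keratin, was called lower, with 3829, 160 and 240 reads and a log2 fold change of -4.52 (adjusted p = 6.0e-04 by edgeR), and its group means were 11543.7 and 2047.2. Leukocyte markers, which would mark another source of these chemokines, summed to 0.993, 1.53 and 1.32 CPM over 6 of 8 found. Of those 6, 3 were at or under 3 reads in every library, S100A12 had 0 reads, and CD14 had 3, 12 and 18. Endothelial markers summed to 0.426, 0.183 and 0.864 CPM, and fibroblast markers to 172, 155 and 145 CPM, the latter almost all from COL1A1 and COL1A2. COL3A1, a further fibroblast collagen, had 0, 0 and 2 reads.

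The genes most like CXCL5, the member with the highest mean level, were sought by the distance between the log2 ratios of both resistant libraries to parental 1, over 9671 genes with mean levels of 10 CPM or more. The 5 nearest were RGL3 (0.0635), H1F0 (0.0685), HAGHL (0.107), ITGB2 (0.108) and OTUB2 (0.119), in log2 units. None of these is a chemokine, and with 3 libraries many profiles lie close together.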

How the data were processed

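RNA of 3 labelled libraries of line 5637 was analysed, 1 parental and 2 resistant. Poly-A RNA was sequenced, and per the submitters' processing notes CASAVA 1.8 and hg19 were used. The aligner and the counting tool were not given in the sources used here. The table deposited by the authors holds raw read counts per gene, FPKM values (reads per kilobase of gene and library size), and a signal per group, deposited as the mean of counts divided by size factors. It also holds the authors' log2 fold changes and p-values, which were not used, and 6 per-library columns without a label here, which were not used.

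Genes were filtered with filterByExpr, scaled by TMM (factors 0.974, 1.03 and 0.995) and tested with edgeR 4.0.16 (R 4.3.3, limma 3.58.1), by glmQLFit and glmQLFTest on 15643 genes. DESeq2 1.42.0, other scalings, no filter, robust shrinkage, the group means and leaving out a resistant library were alternatives. Log2 ratios of group means had a pseudocount of 1, and the plain ratios of group means had none. Only the shares over all genes needed a mean of 10. A count of 0 was set to a limit of 3 reads, which is 0.213, 0.183 and 0.173 CPM. Intervals and limits cover counting error only. The p-values rest on the spread of the 2 resistant libraries and on moderation across genes, and cover no spread between parental libraries. The scripts were tested on simulated counts. The members were given by name, and the gene lists were chosen with earlier results of these data known. Named genes were the members, called genes of the lists, up to 3 of the highest level per list, and a few chosen after their values were seen. Among the latter were EREG, AREG, BTC, PARM1, PPBP, CXCL11, SOWAHB, TNF, IL36G, RELB, JAK2, CXCR2, CXCR6, MED11, S100A12, CD14 and the collagens.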

Additional observations from a re-analysis of the deposited data

How the results depend on the processing

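No paired analysis was possible because the labels name no pairing of parental and resistant libraries. Leaving out the parental library left no parental value, and leaving out a resistant library left 1 against 1, with values and no test. Without either resistant library all 7 tested members stayed above the parental library. The count of all genes called was 235 with DESeq2 size factors, 228 with total count only, 534 with no filter and 251 with the DESeq2 Wald test, against 137. With no filter 4 members were called (CXCL1, CXCL5, CXCL6 and CXCL16). CXCL1 was called under every fit with a test. In the authors' group means CXCL3 had log2 ratios of -0.06, and of -0.06 and -0.05 with pseudocounts of 0.5 and 5, and CXCL8 had -0.08 with each. Against the authors' parental mean, an alternative chosen after seeing the data, resistant 1 was at -0.43 for CXCL3 and -0.01 for CXCL8. The cause was not tested. The summed level in CPM was 106, 237 and 372 without CXCL1, also chosen after seeing the data, and 297 in resistant 1 with total count only. In the group means the list medians were 0.27 for the members, 0.26 for the ELR genes, -0.01 for inducing cytokines and receptors, 0.34 for neighbours on chromosome 4 and -0.26 for epithelial markers. The neighbours had 0.62 with total count only. Without 1 resistant library, list medians ran from 0.30 to 0.82 for other chemokines, 0.40 to 0.51 for inducing cytokines and receptors, -0.31 to -0.14 for interferon signalling, -0.16 to 0.46 for sheddases, -0.17 to 0.41 for AU-rich element binding proteins (both turning sign) and 0.60 to 0.66 for the neighbours, against 1.19 to 1.83 for the members. The single parental library limits every ratio, and at these depths CXCL10 and CCL20 could not be compared.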

Other observations

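Genes that act on chemokine mRNA or protein were listed as well. Of 9 proteins that bind AU-rich elements, 9 were tested, with 0 called by edgeR or DESeq2, 0 at an unadjusted p under 0.05, and a median log2 fold change of 0.23, which was 0.41 without resistant 1 and -0.17 without resistant 2, and 0.19 in the group means. Of 7 proteases and processing factors, 5 were tested, with 0 called by edgeR or DESeq2 and 1, MMP1, at an unadjusted p under 0.05. ADAM10, the protease that sheds CXCL16, was at 36.6, 34.6 and 24.4 FPKM, with a log2 fold change of -0.37 (adjusted p = 0.869 by edgeR), and ADAM17, its relative, at 16.5, 18.6 and 14.4 FPKM. MMP1, an interstitial collagenase, had 159, 430 and 4100 reads and a log2 fold change of 3.54 that did not pass the test (adjusted p = 0.255), and its group means were 939.0 and 1274.5. For MMP1, as for CXCL3 and CXCL5, the difference between the resistant libraries was larger than that between resistant 1 and the parental library.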
